A study of Mus musculus with 8 samples.

Results

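The cell cycle and DNA replication genes described here are 35 mouse genes chosen by name for their roles in replication licensing, S phase, the cyclins with Cdk1, mitosis and the inhibition of cyclin-dependent kinases (CDKs). All 35 were found by symbol among the 31610 genes counted, and all 35 passed the low-count filter that left 18874 genes for testing. They were measured in endothelial cells, the lining cells of blood vessels, sorted from lungs of C57BL/6J mice. The first group, of 4 libraries, had the treatment Control AAV (adeno-associated virus, a gene delivery vector). The second, also of 4, had the treatment nANGPTL4 AAV, named after the lipoprotein lipase inhibitor ANGPTL4. The titles of that second group read NT Treated, an abbreviation left unexplained, so its membership rests on the treatment label. All 8 libraries shared strain, tissue and sorted cell type, and the labels do not give the vector's promoter and dose, the time after injection, and the sex and age of the mice. The 4 libraries of a group are labelled as independent biological replicates.

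Total counts lay between 83183122 and 114337333 per library. The 14 endothelial markers had counts in every library and summed to 24256 to 24948 CPM (counts relative to the TMM-scaled library total) in Control AAV and to 23258 to 24117 CPM in nANGPTL4 AAV, so the sums did not overlap. Angptl4 itself was at 2.87 to 3.88 CPM in Control AAV and at 3.89 to 6.59 CPM in nANGPTL4 AAV.

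A cell that is about to divide first loads the MCM helicase onto replication origins with the help of CDC6 and CDT1, a step called licensing, and then copies its DNA under cyclin E and cyclin A. Entry into mitosis follows when cyclin B activates CDK1, and kinases such as PLK1 and the Aurora kinases, with the anaphase-promoting complex, see the chromosomes apart. CDK inhibitors of the CIP/KIP family (p21, p27 and p57, from Cdkn1a, Cdkn1b and Cdkn1c) and of the INK4 family (p18, from Cdkn2c) hold these steps back. Endothelium of the adult lung is largely resting, and mitotic transcripts are made mainly by cells that are cycling.

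None of the 35 genes passed an adjusted p of 0.05 between the groups, a count of 0 members in edgeR's quasi-likelihood test with Benjamini-Hochberg adjustment over all tested genes. Over all tested genes 0.138% passed, 0.0477% as higher and 0.0901% as lower in nANGPTL4 AAV. At an unadjusted p under 0.05 there were 5 members, against 17.6% of all tested genes. Of these, 4 had higher values in nANGPTL4 AAV, namely the licensing factor gene Cdc6, the cyclin E gene Ccne1, the cyclin B gene Ccnb2 and the inhibitor gene Cdkn2c, where 7.35% of all tested genes were higher at that level. The other one, the helicase subunit gene Mcm4, had lower values, where 10.3% of all tested genes were lower. DESeq2 called 1 member, Cdkn2c, and it called 6.29% of the genes to which it gave an adjusted p, 1.87% as higher and 4.43% as lower. The robust edgeR fit and limma-voom with quality weights each called 0 members. The members' median log2 fold change, taken throughout as nANGPTL4 AAV relative to Control AAV, was 0.04, and that of all tested genes was 0.01. Positive values were found in 21 of the 35, and in 26 with upper quartile scaling and 27 with scaling by library size only, under both of which the median of all tested genes was 0.05. They were found in 15 without nANGPTL4 AAV library 1 and in 18 without Control AAV library 4. Of all tested genes 47.8% had negative values in the reported fit.

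**Figure D1:**
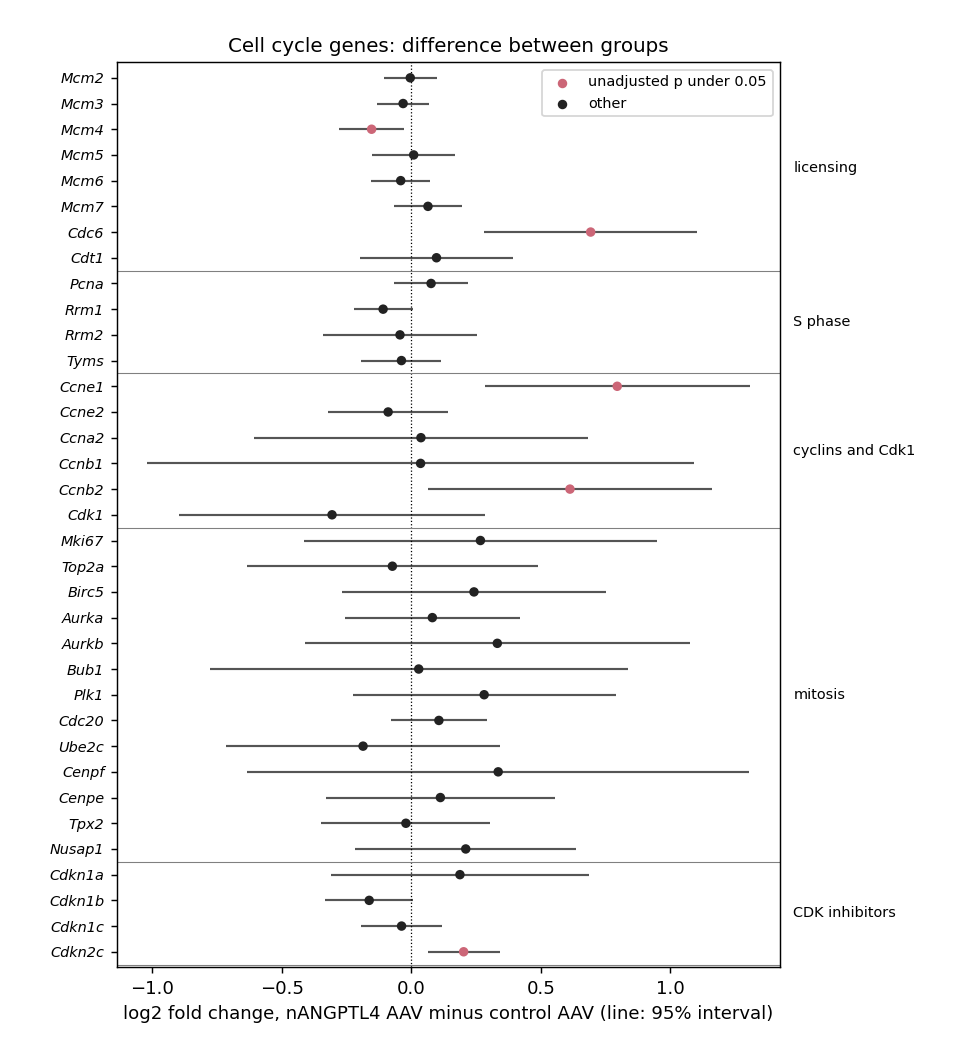
Log2 fold change (x axis, nANGPTL4 AAV relative to Control AAV, 4 libraries each) of the 35 genes, with the 95% interval of the edgeR fit as a line and red points for an unadjusted p under 0.05. The intervals are narrow for the Mcm genes and wide for most mitotic genes, and the 5 red points are Mcm4, Cdc6, Ccne1, Ccnb2 and Cdkn2c.

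Transcripts of the licensing and S phase machinery were more abundant per length than most mitotic transcripts in both groups. As a level in CPM per kilobase of exon, averaged over the 8 libraries, Pcna, the sliding clamp of DNA polymerases, was at 15.5. The helicase subunits on the same scale were at 15.02 for Mcm3, 11.8 for Mcm6, 9.89 for Mcm4, 6.78 for Mcm7, 4.74 for Mcm2 and 3.14 for Mcm5. The licensing factors lay lower, with Cdt1 at 1.18 and Cdc6 at 0.101 CPM per kilobase. The mitotic genes had a median of 0.202 CPM per kilobase, from 0.0351 for the kinetochore gene Cenpf to 3.34 for Cdc20, an activator of the anaphase-promoting complex. Mki67, the proliferation marker Ki-67, was at 0.194, Cdk1 at 0.144 and Ccnb1 at 0.0474 CPM per kilobase. Above them all stood Cdkn1a, which encodes p21, at 140.1, and the other inhibitors were at 12.7 for Cdkn1c, 4.13 for Cdkn1b and 3.70 for Cdkn2c. Exon length here is that of all annotated isoforms together, which lowers the value of genes with long or many isoforms.

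**Figure D2:**
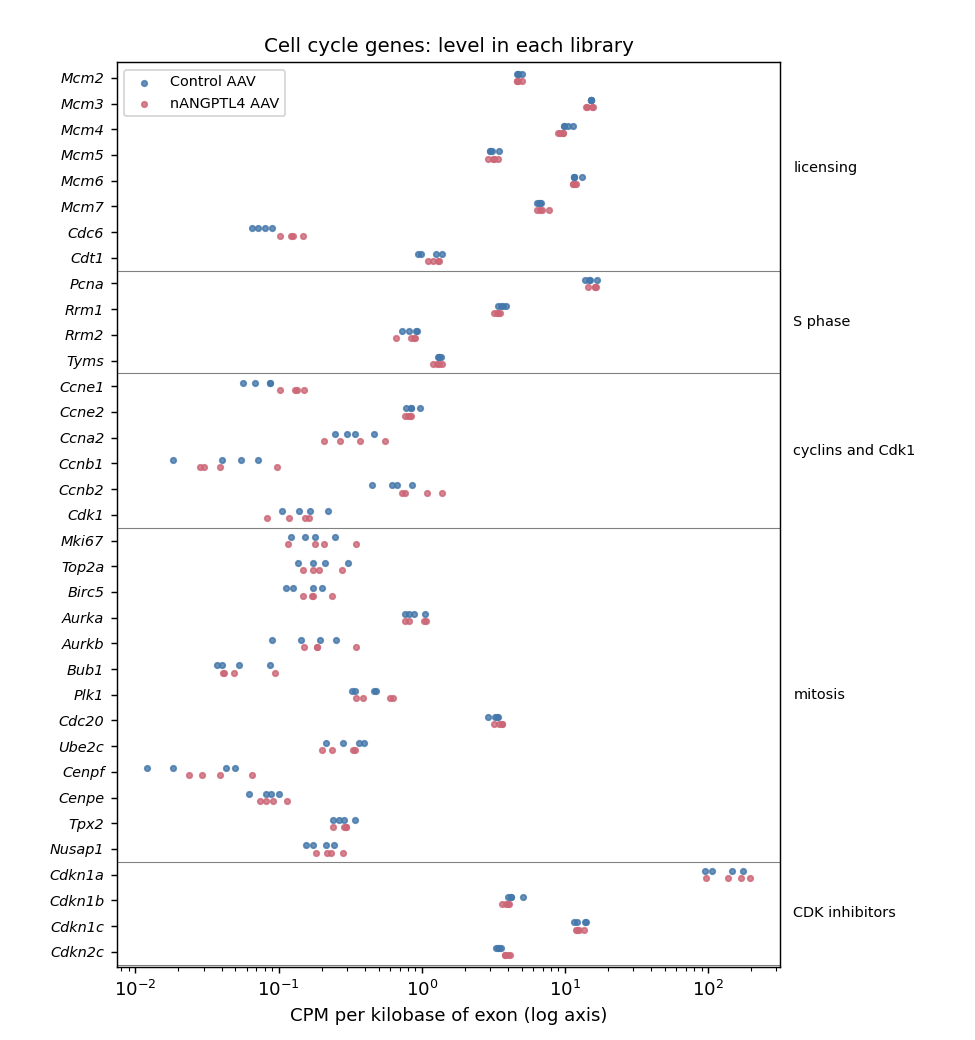
Level of each gene in each library as CPM per kilobase of exon (log axis), Control AAV in blue and nANGPTL4 AAV in red, 4 points each. Cdkn1a averages 140.1 CPM per kilobase, the Mcm2 to Mcm7 genes average 3.14 to 15.02, and Cenpf and Ccnb1 lie lowest with their points spread widely along the axis.

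Promoter sequences are shown for 7 members, 4 with roles in mitosis and 3 with roles in licensing, since the motif counts differ between these roles. Genes of the late cell cycle are known to carry a cell cycle homology region (CHR) and CCAAT boxes, and genes of licensing and S phase to carry E2F sites. RefSeq promoter windows (build GRCm38.p6, the same assembly as mm10, 250 bases before to 50 after the start) were found for 29 of the 35 members. Both strands were searched for the CHR as TTTGAA and for the CCAAT box as CCAAT. The E2F site was searched as TTCCCGC, also as TTCGCGC, also as TTGGCGC and also as TTGCCGC. The CHR letters occurred in 9 of the 15 cyclin, Cdk1 and mitotic genes with a window and in 1 of 7 licensing genes, against 17.9% of the 32851 windows of the whole table. CCAAT occurred in 12 of those 15 and in 5 of the 7, against 37.4% of all windows, and all 9 genes with CHR letters held it too, where 6.95% of all windows held both. E2F letters occurred in 6 of 7 licensing genes, in 2 of 4 S phase genes, in 1 of 3 CDK inhibitor genes and in 3 of those 15, against 9.57% of all windows. Each sequence gives the 150 bases before the RefSeq start 5′ to 3′, with matches on either strand in capitals, and the positions are Cdk1 chr10:69352913-69353062 (minus strand), Mki67 chr7:135716380-135716529 (minus strand), Top2a chr11:99024190-99024339 (minus strand), Cdc20 chr4:118437344-118437493 (minus strand), Mcm5 chr8:75109359-75109508 (plus strand), Mcm6 chr1:128359706-128359855 (minus strand) and Cdc6 chr11:98908001-98908150 (plus strand).
Cdk1: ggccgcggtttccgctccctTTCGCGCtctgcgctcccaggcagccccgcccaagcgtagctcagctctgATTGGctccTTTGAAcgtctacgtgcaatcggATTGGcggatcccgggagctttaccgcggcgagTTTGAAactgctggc
Mki67: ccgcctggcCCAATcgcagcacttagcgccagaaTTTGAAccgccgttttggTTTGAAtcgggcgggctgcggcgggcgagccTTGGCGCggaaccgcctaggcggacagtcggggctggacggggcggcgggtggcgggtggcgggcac
Top2a: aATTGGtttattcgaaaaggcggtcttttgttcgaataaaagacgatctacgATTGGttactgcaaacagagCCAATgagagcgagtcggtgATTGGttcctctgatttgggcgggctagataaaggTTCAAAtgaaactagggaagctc
Cdc20: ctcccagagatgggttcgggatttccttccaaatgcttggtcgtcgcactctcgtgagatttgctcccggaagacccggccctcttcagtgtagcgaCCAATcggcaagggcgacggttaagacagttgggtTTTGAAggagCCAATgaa
Mcm5: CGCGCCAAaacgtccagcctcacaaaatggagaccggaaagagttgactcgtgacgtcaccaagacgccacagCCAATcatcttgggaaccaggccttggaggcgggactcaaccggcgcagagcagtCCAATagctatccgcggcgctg
Mcm6: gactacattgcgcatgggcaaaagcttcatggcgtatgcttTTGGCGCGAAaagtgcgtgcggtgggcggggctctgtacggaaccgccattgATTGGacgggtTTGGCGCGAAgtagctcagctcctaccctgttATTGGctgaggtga
Cdc6: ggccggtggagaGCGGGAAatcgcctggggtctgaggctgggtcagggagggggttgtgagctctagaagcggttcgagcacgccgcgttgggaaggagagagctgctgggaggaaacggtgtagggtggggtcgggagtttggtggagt
The CHR letters begin 71 and 15 bases before the start in Cdk1, 116 and 98 in Mki67, 23 in Top2a on the other strand, and 18 in Cdc20. E2F matches are also printed in 2 of these mitotic examples, beginning 130 bases before the start in Cdk1 and 67 in Mki67. In Mcm6 the runs that begin 109 and 46 bases before the start each join E2F matches on both strands that overlap, so each run is 2 overlapping matches. The capitals at the left edge of Mcm5 are part of 2 overlapping E2F matches, the first of which begins 152 bases before the start. Cdc6 holds an E2F match 138 bases before the start and no match of the other motifs. These are matches of letters, not measured binding.

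Among the licensing genes, Cdc6, whose product recruits the MCM helicase to origins, was at 0.340, 0.469, 0.375 and 0.422 CPM in Control AAV libraries 1 to 4 and at 0.779, 0.662, 0.638 and 0.535 CPM in nANGPTL4 AAV libraries 1 to 4. Every nANGPTL4 AAV library lay above every Control AAV library. The mean levels of Cdc6 were 0.402 ± 0.0561 and 0.653 ± 0.100 CPM (SD, n = 4 each). Its log2 fold change was 0.69, with SE 0.19 and a 95% interval of 0.28 to 1.10, and did not pass over all genes (adjusted p = 0.110 by edgeR). Cdc6 had 31 to 72 counts per library, and over the 17 alternative fits its log2 fold change was 0.61 to 0.79 with adjusted p of 0.0513 to 0.246 by the tool of each fit, edgeR in most. The lowest of these, 0.0513, was the value by DESeq2.

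Mcm4, a subunit of the replicative helicase, was at 40.9, 35.1, 35.5 and 37.9 CPM in the Control AAV libraries and at 32.95, 32.2, 34.7 and 34.6 CPM in the nANGPTL4 AAV libraries. The groups did not overlap, although the lowest control and the highest nANGPTL4 AAV libraries were close. For Mcm4 the log2 fold change was -0.15 (SE 0.06), with an adjusted p of 0.201 by edgeR, and was -0.10 without Control AAV library 1. The other 5 subunits of the ring had log2 fold changes of 0.06 for Mcm7, 0.01 for Mcm5, -0.0039 for Mcm2, -0.03 for Mcm3 and -0.04 for Mcm6. Their 95% intervals ran from -0.15 at the lowest to 0.20 at the highest, and Mcm2, Mcm3, Mcm5 and Mcm6 took the other sign in some alternative fits. Cdt1, which works with Cdc6 in licensing, had mean levels of 3.59 ± 0.657 and 3.85 ± 0.309 CPM (SD, n = 4 each) and a log2 fold change of 0.10. Of the 31-base stretches of Mcm7, 33.4% recur in other genes, so its counts are less certain.

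Among the S phase genes, Pcna was at 40.1, 33.2, 35.9 and 35.5 CPM in the Control AAV libraries and at 38.6, 34.9, 39.9 and 39.2 CPM in the nANGPTL4 AAV libraries. The groups overlapped, with Control AAV library 1 the highest of all 8. The log2 fold change of Pcna was 0.08 (SE 0.07), with an adjusted p of 0.586 by edgeR. Rrm1, the large subunit of ribonucleotide reductase, which makes the building blocks of DNA, was at 42.9, 39.1, 40.4 and 37.6 CPM in Control AAV and at 37.4, 35.4, 38.8 and 36.8 CPM in nANGPTL4 AAV. Only nANGPTL4 AAV library 3 lay above any control library. For Rrm1 the log2 fold change was -0.11 (SE 0.05), with an adjusted p of 0.305 by edgeR. Rrm2, the small subunit, averaged 2.35 and 2.28 CPM, and Tyms, thymidylate synthase, averaged 8.08 and 7.87 CPM in Control AAV and nANGPTL4 AAV. Both had a log2 fold change of -0.04, which took the other sign in some alternative fits. Counts of these genes are less certain, since 23.3% of the 31-base stretches of Pcna, 12.8% of those of Rrm2 and 11.4% of those of Tyms recur in other genes, for Pcna in the pseudogene Pcna-ps2.

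Among the cyclins, Ccne1, which drives entry into S phase, was at 0.230, 0.150, 0.181 and 0.231 CPM in Control AAV and at 0.400, 0.346, 0.273 and 0.360 CPM in nANGPTL4 AAV. All 4 nANGPTL4 AAV libraries were above all 4 controls. For Ccne1 the log2 fold change was 0.79 (SE 0.23, 95% interval 0.28 to 1.31), with an adjusted p of 0.124 by edgeR, on 15 to 37 counts per library. Ccne2, the other cyclin E gene, was more abundant per length, at 0.833 against 0.102 CPM per kilobase. Ccne2 had mean levels of 3.001 ± 0.294 and 2.82 ± 0.116 CPM (SD, n = 4 each) and a log2 fold change of -0.09, and 17.4% of its exonic bases overlap Ints8 on the other strand. Ccna2, the cyclin A gene of S phase and early mitosis, averaged 1.39 and 1.43 CPM with a log2 fold change of 0.04 (SE 0.29), and 12.5% of its exonic bases overlap Exosc9. Counts of Ccne2 and Ccna2 are therefore less certain.

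Ccnb2, a mitotic cyclin gene, was at 0.944, 1.31, 1.03 and 0.684 CPM in Control AAV and at 2.13, 1.17, 1.12 and 1.67 CPM in nANGPTL4 AAV. Libraries 2 and 3 of nANGPTL4 AAV lay below Control AAV library 2, so the groups overlapped. For Ccnb2 the log2 fold change was 0.61 (SE 0.25), with an adjusted p of 0.234 by edgeR, and was 0.42 without nANGPTL4 AAV library 1. Ccnb1, the other B-type cyclin gene, had mean levels of 0.195 ± 0.0951 and 0.206 ± 0.138 CPM (SD, n = 4 each) on 7 to 38 counts per library. Its log2 fold change was 0.04 with a 95% interval of -1.02 to 1.09, which takes in changes of about 2-fold in both directions. That interval is not adjusted for the number of genes, so passing the adjusted test would take a larger change. Of the 31-base stretches of Ccnb1, 27.8% recur in other genes. Cdk1, the kinase that both cyclins activate, averaged 0.781 and 0.638 CPM with a log2 fold change of -0.31 (SE 0.27), which was -0.08 without Control AAV library 2.

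Across the mitotic genes the libraries of a group lay further apart than the group means. Mki67 was at 1.23, 2.50, 1.80 and 1.53 CPM in Control AAV and at 3.48, 2.10, 1.17 and 1.80 CPM in nANGPTL4 AAV. Its lowest and its highest value of all 8 libraries both came from nANGPTL4 AAV. Top2a, a topoisomerase gene whose product untangles chromosomes, was at 1.24, 2.73, 1.90 and 1.58 CPM in Control AAV and at 2.51, 1.56, 1.33 and 1.72 CPM in nANGPTL4 AAV. The highest and the lowest of its 8 libraries were both controls, libraries 2 and 1. The log2 fold change was 0.27 for Mki67 (95% interval -0.42 to 0.95) and -0.07 for Top2a (95% interval -0.64 to 0.49), and each took the other sign in some alternative fits. Without nANGPTL4 AAV library 1 they were -0.06 and -0.27, and without Control AAV library 2 they were 0.50 and 0.19.

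Cenpf, which encodes a large kinetochore protein, was at 0.187, 0.770, 0.665 and 0.282 CPM in Control AAV and at 1.01, 0.454, 0.364 and 0.603 CPM in nANGPTL4 AAV. Aurkb, the Aurora kinase of the chromosomal passenger complex, was at 0.263, 0.743, 0.423 and 0.573 CPM in Control AAV and at 1.03, 0.543, 0.446 and 0.545 CPM in nANGPTL4 AAV. In both genes nANGPTL4 AAV library 1 was the highest and Control AAV library 1 the lowest of the 8. The log2 fold change was 0.34 (SE 0.44) for Cenpf and 0.33 (SE 0.34) for Aurkb. Without nANGPTL4 AAV library 1 these were -0.0036 and 0.02, and over all left-out libraries the highest values, 0.70 and 0.60, came without Control AAV library 2.

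The log2 fold change was 0.28 for the mitotic kinase gene Plk1, 0.24 for the survivin gene Birc5, 0.21 for the spindle protein gene Nusap1, 0.11 for the kinetochore motor gene Cenpe and 0.11 for Cdc20. It was 0.08 for the centrosomal kinase gene Aurka, 0.03 for the checkpoint kinase gene Bub1, -0.02 for the spindle assembly factor gene Tpx2 and -0.19 for Ube2c, which encodes the ubiquitin-conjugating enzyme of the anaphase-promoting complex. Of the 13 mitotic genes 10 had positive values, with a median of 0.11, and 0 had an unadjusted p under 0.05 in the edgeR test. Without nANGPTL4 AAV library 1 that median was -0.0036. Counts of Ube2c, Cdc20 and Plk1 are less certain, since 25.3%, 26.7% and 18.7% of their 31-base stretches recur in other genes, and Ube2c overlaps Tnnc2 over 22.8% of its exonic bases.

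The same libraries were high or low from gene to gene. Among the 19 cyclin, Cdk1 and mitotic genes, nANGPTL4 AAV library 1 was the highest of its group in 17, and nANGPTL4 AAV library 3 the lowest in 11. Control AAV library 2 was the highest of its group in 13 of them and Control AAV library 1 the lowest in 9. The same counts were not made over all tested genes, so whether this order is particular to these genes was not tested. The 13 mitotic genes summed to 16.05, 21.6, 18.3 and 16.6 CPM in Control AAV libraries 1 to 4 and to 24.5, 18.3, 16.5 and 19.4 CPM in nANGPTL4 AAV libraries 1 to 4. A separate list of 34 mitotic genes (kinesins, spindle checkpoint and kinetochore genes and others) was read as the mean deviation in log2 CPM from each gene's own mean, which weighs its genes equally. That mean was highest and lowest in the same libraries of each group, 0.36 in nANGPTL4 AAV library 1, 0.20 in Control AAV library 2, -0.23 in nANGPTL4 AAV library 3 and -0.28 in Control AAV library 1. Its summed CPM, which its abundant genes dominate, had another order, 296, 299, 292 and 301 CPM in Control AAV libraries 1 to 4 and 309, 298, 305 and 303 CPM in nANGPTL4 AAV libraries 1 to 4, with only nANGPTL4 AAV library 1 again the highest of its group. The licensing genes summed to 225 to 239 CPM in Control AAV and to 219.9 to 227 CPM in nANGPTL4 AAV, a narrower relative range.

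**Figure D3:**
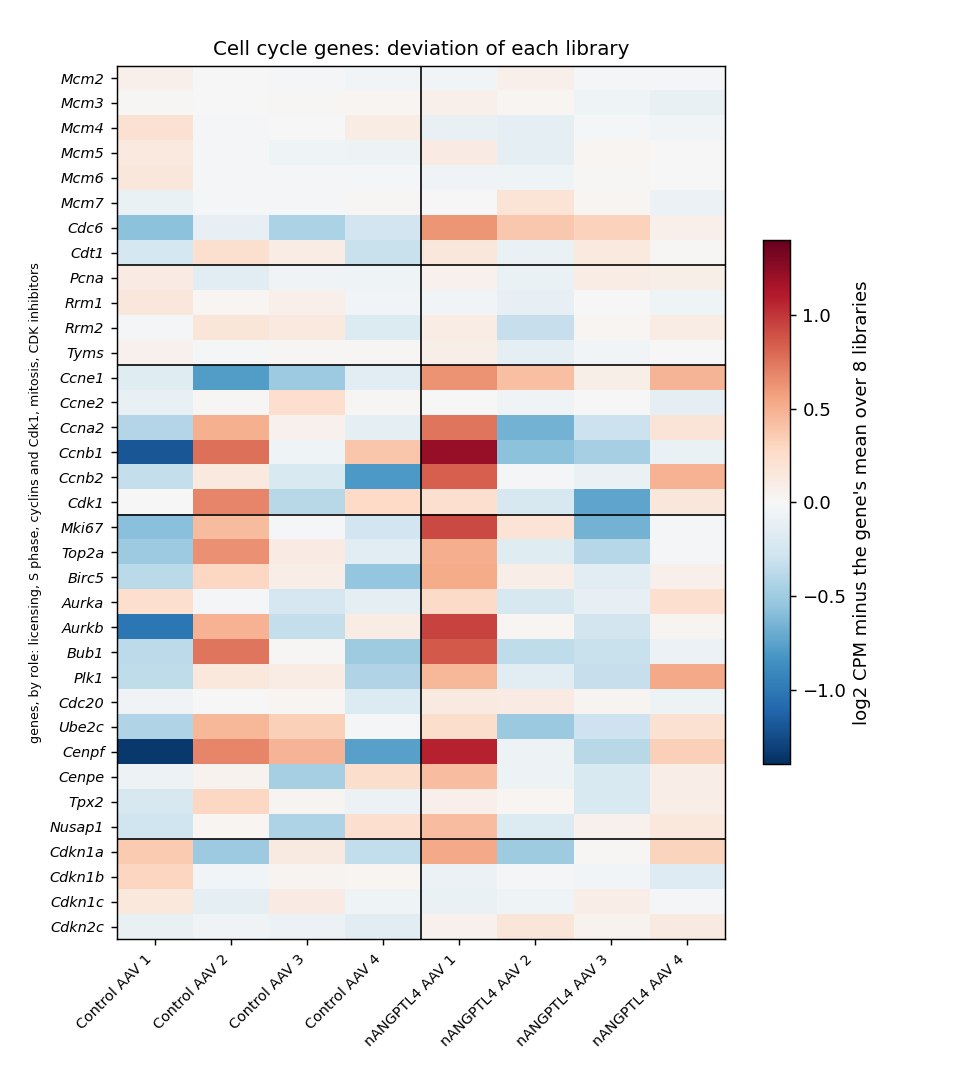
Deviation of each library from the gene's mean over 8 libraries in log2 CPM (colour), for the 35 genes in rows by role and the 8 libraries in columns, with lines between roles and between groups. Most cyclin and mitotic rows are red in nANGPTL4 AAV library 1 and Control AAV library 2 and many are blue in Control AAV library 1, while the Mcm rows are close to white.

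The spread was also read as the biological coefficient of variation (BCV), the variation between replicates beyond counting error. Estimated gene by gene, the median BCV was 5.54% in the licensing genes, 5.63% in the S phase genes and 23.5% in the mitotic genes. The largest values were 52.4% for Cenpf and 51.8% for Ccnb1. The BCV lay above the trend for genes of like abundance in 11 of the 19 cyclin, Cdk1 and mitotic genes and in 0 of the 12 licensing and S phase genes, against 27.4% of all tested genes. The 95% interval of the fold change stayed within 1.5-fold in both directions for 19 of the 35 members, among them 7 of 8 licensing and all 4 S phase genes but 4 of 13 mitotic genes. It stayed within 2-fold for 29 of the 35.

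Markers of other cells, some of which divide, were read beside these values. Summed CPM of 14 lymphocyte markers was 3.81 to 4.38 in Control AAV and 4.54 to 9.03 in nANGPTL4 AAV, and all 6 that passed the filter had positive log2 fold changes. Cd3d, Klrd1, Ncr1, Trbc1 and Trbc2 had a count of 0 in at least 1 library. The library with the highest lymphocyte sum, nANGPTL4 AAV library 2 at 9.03 CPM, had a mitotic sum of 18.3 CPM. The library with the highest mitotic sum, nANGPTL4 AAV library 1, had the lowest lymphocyte sum of its group at 4.54 CPM. In Control AAV and nANGPTL4 AAV, 12 myeloid markers summed to 18.9 to 40.9 and 30.3 to 49.7 CPM, and 11 erythroid and platelet markers to 45.9 to 89.1 and 74.9 to 87.5 CPM. Likewise 15 lung epithelial markers summed to 349 to 509 and 489 to 599.7 CPM, and 13 fibroblast and mural markers to 68.02 to 139 and 78.4 to 169.7 CPM. Log2 fold changes were positive in 13 of 15 epithelial, 9 of 9 tested erythroid and platelet, 3 of 5 tested myeloid and 7 of 13 fibroblast and mural markers. Of the erythroid ones, Hbb-bt had 0, 3, 10 and 5 counts in Control AAV and 11, 30, 13 and 29 in nANGPTL4 AAV. It passed the low-count filter mainly through the group where it was higher, so its sign carries no weight in that count. The airway secretory cell gene Scgb3a2 was the only marker of any list to pass the edgeR test, higher in nANGPTL4 AAV at 1.30 (adjusted p = 0.0369), from 0.328 to 0.804 CPM. Another such gene, Scgb1a1, was at 1.24 with groups that did not overlap (adjusted p = 0.0961 by edgeR). Foxj1 of the same epithelial list went the other way, at -0.86 with overlapping groups (adjusted p = 0.130 by edgeR). The myeloid marker Cd68 was at 0.46 (adjusted p = 0.0718 by edgeR). Groups did not overlap, with nANGPTL4 AAV higher, in 3.89% of all tested genes. Marco, Hbb-bt and Slc4a1 were the only markers of these 4 lists with a count of 0 in some library. Control AAV library 1, the lowest of its group in 9 of the 19 genes, had the lowest sums of the 8 libraries for all 4 of these lists. The part of other cells in the mitotic values was not tested. In bulk samples a difference in the number of cycling cells and in the RNA per cycling cell cannot be told apart.

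Of the CDK inhibitor genes, Cdkn1a, which encodes p21 and is a known target of p53, was at 621, 337, 524 and 379.7 CPM in Control AAV and at 695, 341, 486 and 599 CPM in nANGPTL4 AAV. In each group library 1 was the highest and library 2 the lowest, and the groups overlapped over most of their range. The mean levels of Cdkn1a were 465 ± 131 and 530.0 ± 153 CPM (SD, n = 4 each). Its log2 fold change was 0.19 (SE 0.22, 95% interval -0.31 to 0.68), with an adjusted p of 0.709 by edgeR. With single libraries left out it ran from 0.04 without nANGPTL4 AAV library 1 to 0.37 without Control AAV library 1. Cdkn1a had 34475 to 64268 counts per library, a counting error of 0.453%, and a BCV of 28.9% against 8.14% on the trend.

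A pair of genes from the list of p53 and its targets, Btg2 and Plk2, chosen after their values were seen, had the same highest and lowest libraries as Cdkn1a in each group. They were the only 2 of the 21 genes of that list to do so, while in Bax, an apoptosis gene, library 2 was the highest and library 1 the lowest of each group. Btg2, an antiproliferative gene, was at 739.5, 367, 531 and 563 CPM in Control AAV and at 841, 524, 629 and 749 CPM in nANGPTL4 AAV. Plk2, a polo-like kinase gene, was at 1391, 792, 1109.5 and 1244 CPM in Control AAV and at 1415, 1085, 1160.4 and 1162 CPM in nANGPTL4 AAV. Neither passed the test between the groups by edgeR, with adjusted p-values of 0.424 for Btg2 and 0.801 for Plk2. Trp53, which encodes p53, lay within 75.98 to 82.7 CPM over the 8 libraries.

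Cdkn2c, which encodes p18, an inhibitor of CDK4 and CDK6, was at 9.20, 9.56, 9.36 and 8.84 CPM in Control AAV and at 10.3, 11.1, 10.3 and 10.8 CPM in nANGPTL4 AAV. Every nANGPTL4 AAV library lay above every Control AAV library, and the libraries of a group were close together. The mean levels of Cdkn2c were 9.24 ± 0.303 and 10.6 ± 0.401 CPM (SD, n = 4 each). Its log2 fold change was 0.20 (SE 0.06, 95% interval 0.06 to 0.34), with an adjusted p of 0.139 by edgeR and of 0.0420 by DESeq2. Over the 17 alternative fits of Cdkn2c, DESeq2 included and edgeR in most, the adjusted p was 0.0420 to 0.278 and the log2 fold change 0.18 to 0.25.

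Cdkn1b, which encodes p27, was at 23.02, 18.2, 19.2 and 19.1 CPM in Control AAV and at 17.7, 18.4, 18.3 and 16.6 CPM in nANGPTL4 AAV. Only Control AAV library 2 lay within the range of the other group. For Cdkn1b the log2 fold change was -0.16 (SE 0.08), with an adjusted p of 0.306 by edgeR. Cdkn1c, an imprinted gene that encodes p57, was at 28.7, 23.6, 27.98 and 24.9 CPM in Control AAV and at 24.2, 24.9, 27.6 and 25.6 CPM in nANGPTL4 AAV. The nANGPTL4 AAV libraries all lay within the control range. The log2 fold change of Cdkn1c was -0.04 (SE 0.07), and 30.6% of its exonic bases overlap the antisense gene Gm44732, so its counts are less certain. It took the other sign in some alternative fits. In all, 4 of the 35 members had groups that did not overlap, against 10.9% of all tested genes. Cdc6, Ccne1 and Cdkn2c were the 3 higher ones, against 3.89% of all tested genes, and Mcm4 the 1 lower one, against 6.99%.

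**Figure D4:**
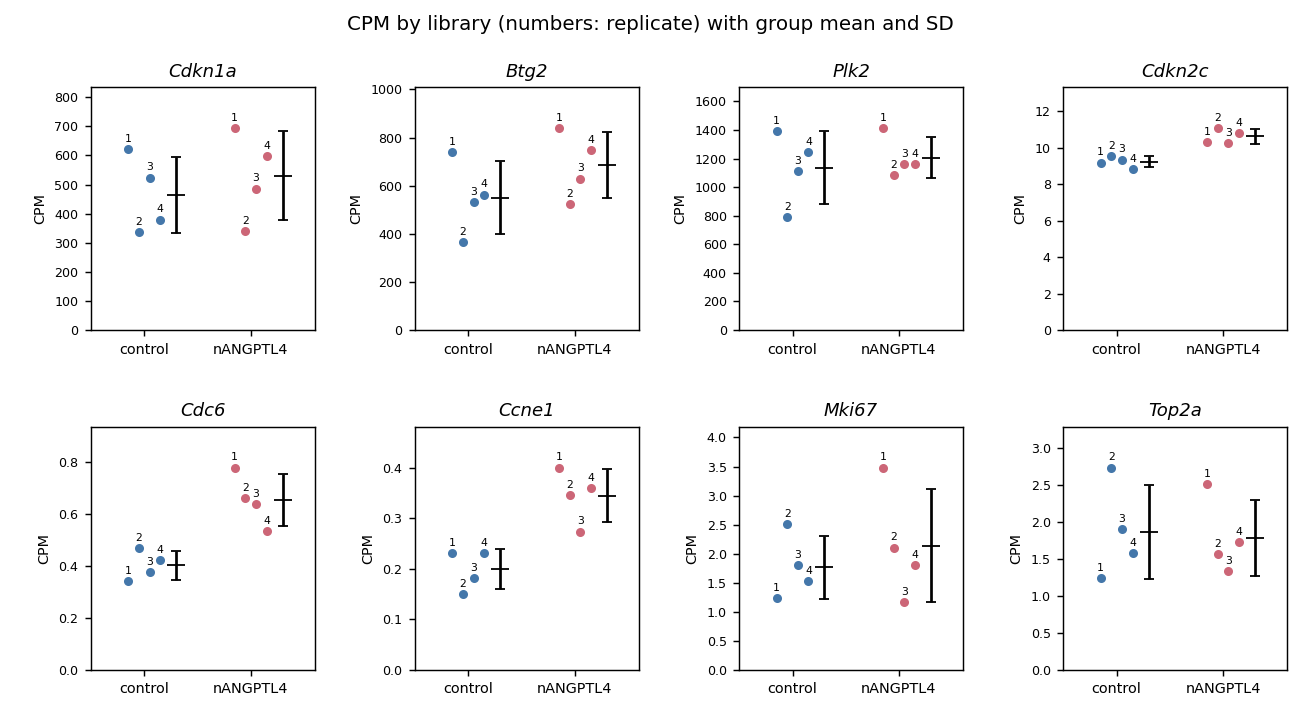
CPM in each library (y axis from 0, points numbered by replicate) with the group mean and SD beside them, for the members Cdkn1a, Cdkn2c, Cdc6, Ccne1, Mki67 and Top2a and for Btg2 and Plk2. Cdkn2c, Cdc6 and Ccne1 show groups that do not overlap, whereas Cdkn1a, Btg2 and Plk2 are highest in library 1 and lowest in library 2 of each group.

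Further genes of the pathway, in 7 lists with 156 tested genes, held 0 called genes in the edgeR test, in its robust form and in limma-voom, with 9 higher and 14 lower at an unadjusted p under 0.05 by edgeR, where 7.35% and 10.3% of all tested genes were higher and lower. DESeq2 called 10 of the 153 to which it gave an adjusted p, 4 higher (Rfc1, Pole, Gadd45a, Cdkn2a) and 6 lower (Orc4, Pold3, Ctps, E2f4, Lin54, Cul1), where it called 1.87% of all such genes higher and 4.43% lower. Both counts lie near those shares. Of 39 tested genes for origin recognition and the replication fork, 3 were higher and 2 lower at an unadjusted p under 0.05, with a median log2 fold change of 0.03. Log2 fold changes of those with the smallest p were 0.20 for the clamp loader subunit Rfc1, -0.20 for the polymerase delta subunit Pold3, -0.24 for the origin recognition subunit Orc4 and 0.59 for the polymerase epsilon gene Pole. Of 10 nucleotide supply genes, 1 was lower at that level, the CTP synthase gene Ctps at -0.34. Next by p were the thymidine kinase gene Tk1 at 0.25, the dUTPase gene Dut at 0.22 and the deoxycytidine kinase gene Dck at -0.09, and the median of these 10 was 0.01.

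Among 26 genes for G1 cyclins, RB proteins and E2F factors, 19 had negative log2 fold changes, and 3 were lower and 0 higher at an unadjusted p under 0.05 by edgeR. The median of the 26 was -0.07, and at that level 10.3% of all tested genes were lower and 7.35% higher. Lin54, a DNA-binding subunit of the MuvB complex, which binds the CHR, was at -0.28, the repressive factor gene E2f4 at -0.17 and the phosphatase gene Cdc25a at -0.14, followed by Tfdp2, an E2F partner gene, at 0.12. Of 20 genes that degrade cyclins and inhibitors, 16 had negative log2 fold changes with a median of -0.06, and 5 were lower and 0 higher at that level. Those with the smallest p were the SCF scaffold gene Cul1 at -0.17, the anaphase-promoting complex genes Cdc16 at -0.14 and Anapc1 at -0.13, and the CUL4 adaptor gene Ddb1 at -0.10. In 6 of these 20 genes the nANGPTL4 AAV libraries all lay below the controls, where 6.99% of all tested genes did. Across the whole table, tested genes above 3 in log2 CPM had a median of -0.03.

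Of the 34 other mitotic genes 33 were tested, and 2 were higher and 0 lower at an unadjusted p under 0.05 by edgeR, with a median log2 fold change of 0.09. These were the separase gene Espl1 at 0.29 and the securin gene Pttg1 at 0.13, followed by the kinetochore gene Spc25 at 0.21 and Wee1, an inhibitory kinase of CDK1, at -0.23. Over all tested genes 7.35% were higher and 10.3% lower at an unadjusted p under 0.05 by edgeR. Of 21 genes for p53 and its targets, 2 were higher and 3 lower at that level, with a median of 0.01. The smallest p-values there belonged to the growth arrest gene Gadd45a at 0.25, the nuclease gene Aen at -0.17, the apoptosis gene Bbc3 at -0.23 and Phlda3 at 0.17. Of 7 genes for other CDK inhibitors and FOXO factors, 2 were higher and 0 lower, the INK4 locus genes Cdkn2a at 0.57 and Cdkn2b at 0.26, followed by Foxo1 at 0.18 and Foxo4 at 0.28. Their median was 0.18. Cdkn2a averaged 0.651 and 0.967 CPM in Control AAV and nANGPTL4 AAV, with groups that did not overlap and an adjusted p of 0.121 by edgeR. Of all tested genes 3.89% had such groups with nANGPTL4 AAV higher.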

How the data were processed

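Lung endothelial cells were sorted, and libraries were made from their total RNA with kits for very low input, per the labels' protocols. The deposited values are whole-number read counts per Ensembl gene, not normalized. The submitters' processing notes name the build mm10; an aligner, counter, strand setting or annotation is not given in the sources used here. Of 31610 identifiers, 31491 were matched to symbols without their version. Exon lengths, overlaps between genes and 31-base stretches that recur in other genes came from GENCODE M21 on the same assembly, and promoters from RefSeq.

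The groups were compared with edgeR 4.0.16 in R 4.3.3, using filterByExpr with a minimum count of 10, TMM scaling, the quasi-likelihood test with group as its only term, and Benjamini-Hochberg adjustment over 18874 genes. CPM used TMM-scaled library sizes, and log2 CPM a prior count of 2. The alternatives were other scalings and filters, DESeq2 1.42.0, limma-voom (limma 3.58.1), a robust edgeR fit, a replicate block and each library left out. The fit was tested on simulated counts for the 18874 genes of this comparison. It recovered 54% of 50 genes changed 1.25-fold, 90.0% of 50 genes changed 1.5-fold and 100% of 50 changed 2-fold. The changed genes were drawn from the more abundant genes only, and the spread was set to the trend for genes of like abundance. Cdc6 and Ccne1 (mean log2 CPM -0.86 and -1.78) lay below that abundance cut-off, as did most mitotic genes. The BCV was above the trend in 11 of the 19 cyclin, Cdk1 and mitotic genes. The recovered shares therefore do not apply to such members. In the simulation every gene lay on the trend, whereas 27.4% of tested genes in the data had a BCV above it. The shares may therefore be too high for the other members as well.

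The members and lists were chosen with earlier results of these data known. All 35 members are named. Values in every library are given for the 4 CDK inhibitors, Mki67, Top2a, Pcna, members with an unadjusted p under 0.05 and the 2 members of each role group with the largest absolute log2 fold change. For each other list up to 4 genes with the smallest p are named.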

Additional observations from a re-analysis of the deposited data

Results flagged for a closer look

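Within each group of 4 libraries, a library was singled out where the gap to its nearest neighbour, as a share of the group's range, passed Dixon's 95% critical value. This held for 5 of 70 combinations of member and group, and chance singles out about 1 in 20. In nANGPTL4 AAV, library 1 stood above the other 3 in Ccnb1 at 0.411 CPM, in Bub1 at 0.411 CPM and in Aurkb at 1.03 CPM. In the same group, library 2 stood above the others in Mcm2 at 34.7 CPM. In Control AAV, library 1 stood above the others in Mcm6 at 61.3 CPM.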

How the results depend on the processing

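Of 17 alternatives, 16 called 0 members and DESeq2 called 1, Cdkn2c (adjusted p = 0.0420), the cause of which was not tested. There were 5 members at an unadjusted p under 0.05 in the reported fit and 3 to 6 with each library left out in turn, the 3 without nANGPTL4 AAV library 1, in a fit with fewer samples. The members' median log2 fold change was -0.01 without that library and 0.02 to 0.13 without each of the others. The sign of 20 of the 35 members was the same in every alternative. The stricter filter tested 32 members, and Ccne1, Ccnb1 and Bub1 have no value there. Replicate numbers gave no clear sign of paired samples. Correlations of same-numbered libraries' deviations from the group means were 0.14, 0.16, -0.25 and -0.31, and 2 of 8 libraries correlated best with their own number. Such a check cannot exclude pairing. With the replicate number as a block, 0 members were called, 4 had an unadjusted p under 0.05 and the median was 0.04, while the calls among all genes were 1 higher and 5 lower, against 9 and 17 without it. Leaving out any 1 library left 1 or 2 calls among all genes. The robust edgeR fit called 16 higher and 43 lower among all genes, and upper quartile scaling or library size only 3 higher and 1 lower. Counts were lowest in Ccnb1 (7 to 38 per library), Ccne1 (15 to 37) and Bub1 (16 to 43).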
